A study of Mus musculus with 6 samples.

Results

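The kinases that act on IκB proteins and the proteins that switch these kinases on were examined in hippocampi of mice in which Nestin-Cre deleted the IκBα gene. The set was defined by name as 9 genes: Chuk, Ikbkb, Ikbkg, Ikbke, Tbk1, Map3k14, Map3k7, Tab1 and Tab2. All probe sets of the array with 1 of these symbols as their only gene symbol were taken, which gave 26 of 45101 probe sets, for 8 of the 9 genes. Chuk, which encodes IKKα, has no probe set under its symbol in the annotation used and is not analysed here. RNA came from the hippocampi of 6 mice aged 2 to 3 months, measured on 1 Affymetrix mouse array per animal. The 3 IκBα-deficient animals carried 1 floxed and 1 null copy of Nfkbia, the IκBα gene, together with Nestin-Cre (IκBαfl/-;Nestin-Cre), and their 3 littermate controls carried both alleles but no Cre (IκBαfl/-). All 6 animals therefore carried 1 null allele, and neither a wild-type group nor a group with Nestin-Cre alone was part of the comparison. Nestin-Cre is active in neural progenitors and so deletes in neurons, astrocytes and oligodendrocytes, whereas microglia and blood vessel cells keep the floxed allele.

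In the canonical NF-κB pathway, a signal at the cell surface activates the kinase TAK1, which works together with the adaptors TAB1 and TAB2. TAK1 phosphorylates the IKK complex, made of the kinases IKKα and IKKβ and the scaffold NEMO, and IKK then marks IκBα for destruction and frees NF-κB. A noncanonical branch runs from the kinase NIK to IKKα, and the related kinases TBK1 and IKKε serve mainly interferon induction and autophagy. IKK activity is set mostly by phosphorylation and ubiquitin chains, which an expression array does not read. The comparison asks whether the transcripts of this kinase tier differ when Nestin-Cre deletes the gene of the inhibitor on which it acts.

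Values are RMA values on the log2 scale, a relative level for each probe set, and all differences are IκBα-deficient minus control. A probe set is a group of short probes against 1 stretch of transcript. The ending _at marks probes unique to their target, _a_at probes common to transcripts of 1 gene, and _s_at or _x_at probes that may also read other transcripts. Probe sets of 1 gene share the RNA and are not replicates, and the 26 probe sets were designed from 19 different source sequences. Words such as bright and dim rank the signal of probe sets, which also depends on their probes, and do not compare the abundance of transcripts. In tissue RNA, fewer cells of a type and less RNA per cell cannot be told apart.

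The targeted gene was lower. Nfkbia probe set 1438157_s_at read 8.81, 8.71 and 8.78 in controls and 7.04, 7.07 and 6.86 in deficient animals, which is 3.42-fold lower (difference -1.77 ± 0.08 SE, adjusted p = 0.00183, limma with Benjamini-Hochberg). On 1448306_at the difference was -1.74 and on 1449731_s_at -1.83, with adjusted p of 0.00663 and 0.0431 (limma). These 3 probe sets were the only ones of 45037 tested that passed an adjusted p under 0.05 (limma), 0 higher and 3 lower or 0.00666% in either direction. The call on 1438157_s_at held in all 6 fits that left out 1 array, while that on 1448306_at was lost when control array 3 or IκBα-deficient array 2 was left out, and that on 1449731_s_at in all but the fit that left out IκBα-deficient array 3. The other Nfkbia probe sets, 1420088_at at -1.40 and 1420089_at at -0.35, missed the threshold (adjusted p = 0.0629 and 1, limma). The labels do not say which part of the gene is floxed, so whether these probes lie inside the deleted part is not known.

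Arrays correlated at 0.992 to 0.998 across probe sets, and their medians lay between 6.08 and 6.13. The 10 hippocampal neuron markers had control means from 6.81, for Prox1 of dentate granule cells, to 14.02, for the kinase gene Camk2a. Of these, 8 read lower and 2 higher in deficient animals, with a median difference of -0.08, and none passed the test (limma, all with an adjusted p of 1). Choroid plexus markers differed widely: all 10 measured of 12 listed genes were higher in deficient animals, but none passed the test (limma). The list mean was 7.73, 5.85 and 5.77 in controls and 8.51, 7.94 and 7.61 in deficient animals. Control array 1 thus stood well above the other controls and above IκBα-deficient array 3. The 10 meninges markers were also all higher, and none passed the test (limma). Their list means were 7.76 to 8.31 in controls and 8.29 to 9.15 in deficient animals. IκBα-deficient array 2 had the highest meninges mean and the widest 3′ minus 5′ difference of the Actb and Gapdh controls, 2.02 on the log2 scale beside 0.56 to 0.73 on the other 5 arrays, a measure of RNA and labelling quality. The part of these differences in the values below was not tested beyond the covariates named.

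None of the 26 probe sets of the IKK genes and upstream kinases passed the test (limma, all with an adjusted p of 1), beside 0.00666% of all probe sets. Differences ran from -0.32 to 0.15, with 15 probe sets higher and 11 lower, a median of 0.01, beside a median of -0.001 over all probe sets, of which 49.8% read higher. At an unadjusted p under 0.05, 0 members were higher, where 2.15% of all probe sets were, and 1 was lower, where 1.19% were, or 3.34% in either direction. All deficient arrays stood above all controls on 1 member probe set (4.76% of all probe sets did) and below them on 3 (3.68%), together 15.4% of the members beside 8.45% of all probe sets. With so few probe sets, several from the same gene, that share is a description of these arrays.

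**Figure D1:**
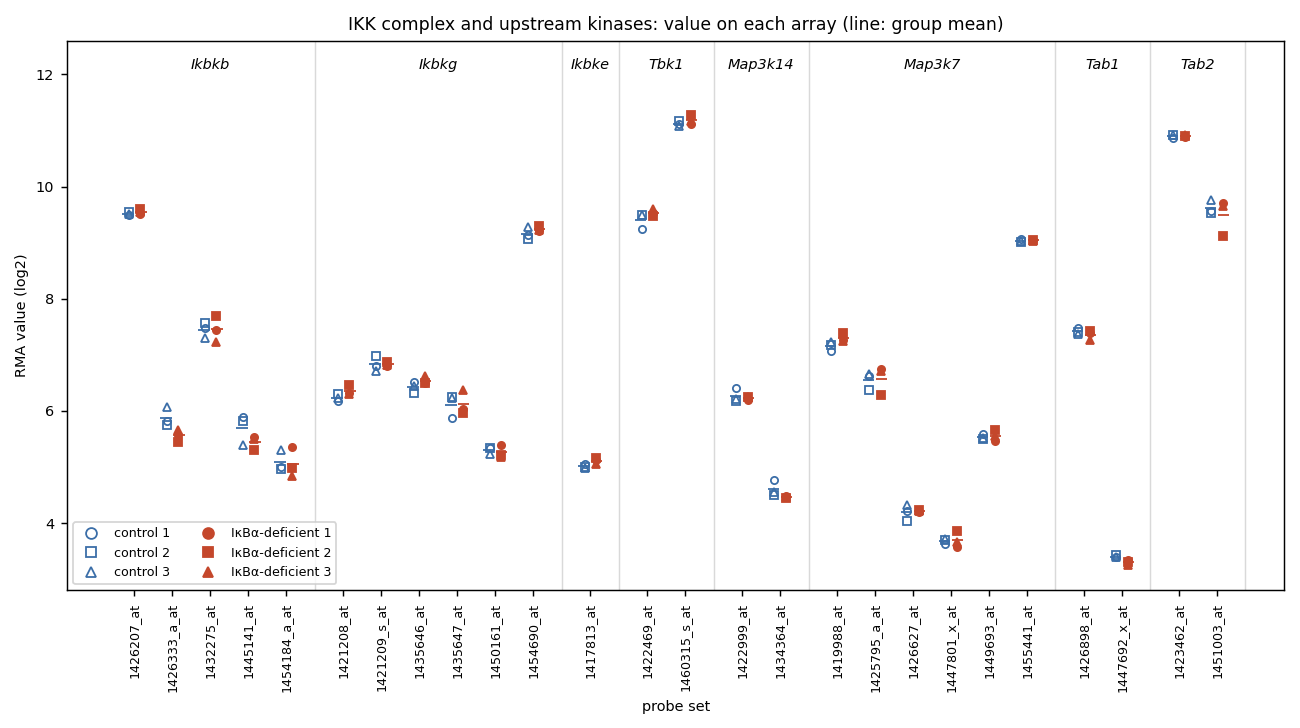
RMA value (log2, vertical axis) of every member probe set (horizontal axis, grouped by gene) on each array, with open blue marks for the 3 controls, filled red marks for the 3 IκBα-deficient animals, 1 marker shape per repeat number and a line at each group mean. The groups overlap on 22 of 26 probe sets, and the widest gap between group means is that of Ikbkb 1426333_a_at, -0.32.

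The precision of the arrays sets what these values can show. The brightest probe set of each of the 8 genes had a 95% interval of the difference, from the moderated fit and not adjusted for the number of tests, that reached at most a 1.21-fold change in either direction. Over all 26 probe sets the outermost interval bound was -0.58, for Ikbkb 1445141_at. By comparison, the 5 Nfkbia probe sets differed by 1.28-fold on 1420089_at and by 2.64-fold to 3.56-fold on the others. Of the members' probe sets, 7 lay in the lowest 40% of all probe sets by mean, where RMA compresses differences.

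**Figure D2:**
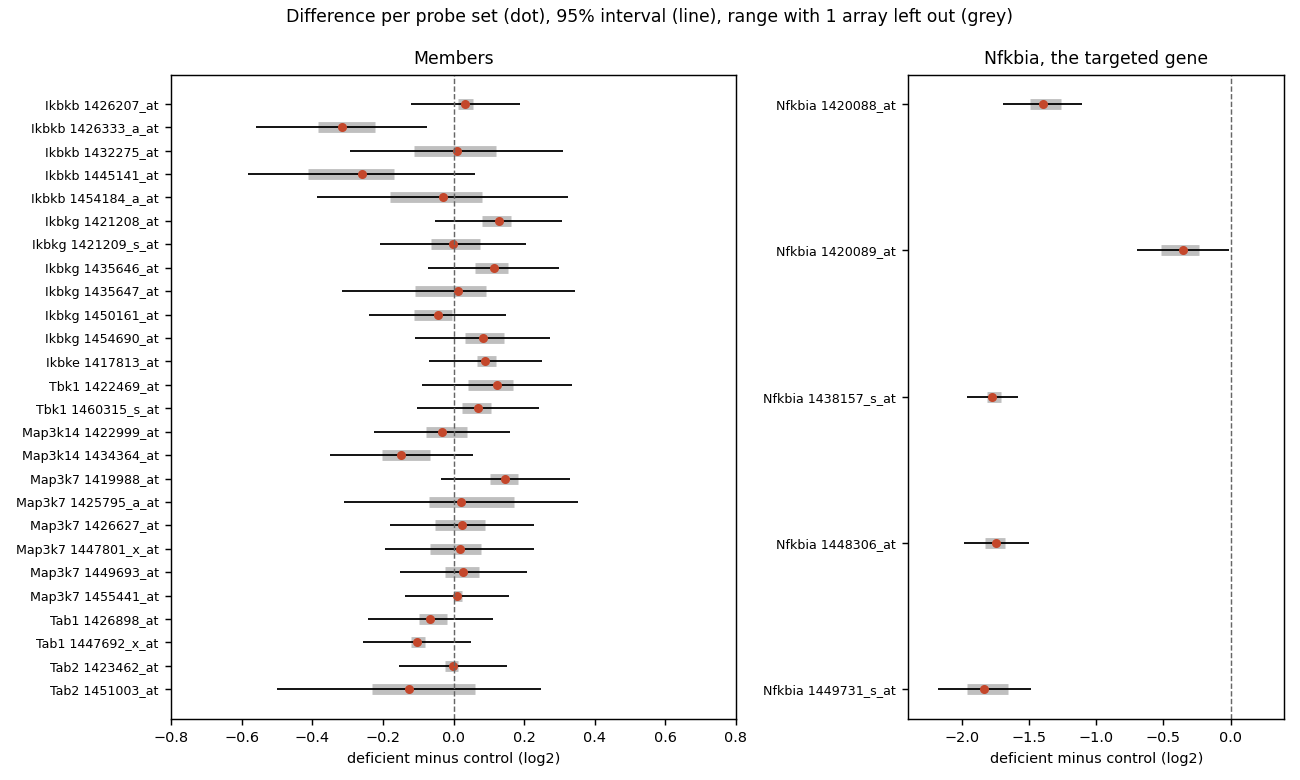
Difference between IκBα-deficient and control means (log2, horizontal axis) of each member probe set (left) and each Nfkbia probe set (right, wider scale), with 95% intervals as lines and the range with 1 array left out as grey bars. For the members, 25 of 26 intervals hold 0, while all 5 Nfkbia intervals lie below 0.

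Ikbkb encodes IKKβ, the kinase that does most of the phosphorylation of IκBα in canonical signalling. Its brightest probe set, 1426207_at, read 9.50, 9.55 and 9.51 in controls and 9.51, 9.59 and 9.55 in deficient animals. The groups overlapped, the difference was 0.03 ± 0.07 (SE), and the 95% interval ran from -0.12 to 0.19. The probe sets 1432275_at and 1454184_a_at were nearly level between groups but varied more from animal to animal, with differences of 0.008 and -0.03.

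A different reading came from a dimmer Ikbkb probe set, 1426333_a_at. It stood at 5.83, 5.75 and 6.07 in controls and at 5.58, 5.45 and 5.66 in deficient animals, so that every deficient array lay below every control. The difference was -0.32 ± 0.10 (SE), or 1.25-fold, with an unadjusted p of 0.0172 and an adjusted p of 1 (limma). This was the single member probe set with an unadjusted p under 0.05. Control array 3 was the highest of the 6 and IκBα-deficient array 2 the lowest, and the difference was -0.22 without the former and -0.26 without the latter. With the meninges mean as a covariate it was -0.16, with the choroid plexus mean -0.24 and with the 3′ minus 5′ difference -0.25. Probe set 1445141_at also read lower, at 5.89, 5.82 and 5.40 against 5.53, 5.30 and 5.50, and here the groups overlapped because control array 3 was low. Its difference of -0.26 ran from -0.48 to -0.20 under the alternative fits on all 6 arrays. Thus control array 3 was the highest array on 1 of these Ikbkb probe sets and below 2 of the 3 deficient arrays on the other, and neither difference passed the test.

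Ikbkg encodes NEMO, the scaffold that binds ubiquitin chains and brings the kinases to the receptor complex. Its brightest probe set, 1454690_at, read 9.13, 9.06 and 9.28 in controls and 9.20, 9.30 and 9.22 in deficient animals. The groups overlapped, with a difference of 0.08 ± 0.08 (SE) and an interval of -0.11 to 0.27. On 1421208_at, the widest of the gene, values of 6.17, 6.30 and 6.23 met 6.33, 6.46 and 6.30, so that the lowest deficient array and the highest control shared the value 6.30. In all, 4 of the 6 Ikbkg probe sets read higher and 2 lower, between -0.05 and 0.13. Even probe sets made from 1 source sequence differed in spread: 1435646_at had an SD of 0.10 in controls and 1435647_at 0.21.

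Ikbke encodes IKKε, an IKK-related kinase that is itself induced by NF-κB and interferon signals in many cells. Its only probe set, 1417813_at, was dim, at 5.06, 5.01 and 4.99 in controls and 5.13, 5.15 and 5.05 in deficient animals. Only the lowest deficient array fell among the controls, and the difference of 0.09 ± 0.07 (SE) did not pass. At this brightness a change could be understated. Tbk1 encodes TBK1, the widely expressed relative of IKKε that phosphorylates the interferon regulator IRF3 and autophagy receptors. On 1460315_s_at it read 11.12, 11.16 and 11.08 against 11.11, 11.28 and 11.17, a difference of 0.07 ± 0.07 (SE) with overlapping groups. The second Tbk1 probe set, 1422469_at, read 9.24, 9.50 and 9.49 against 9.52, 9.48 and 9.60. Control array 1 stood low there, and the difference of 0.12 became 0.04 without it.

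Map3k14 encodes NIK, the kinase of the noncanonical branch, whose protein is kept scarce by constant degradation in resting cells. On 1422999_at it read 6.40, 6.17 and 6.21 in controls and 6.19, 6.24 and 6.25 in deficient animals, with overlapping groups and a difference of -0.03 ± 0.08 (SE). On the dimmer 1434364_at the deficient arrays, at 4.48, 4.45 and 4.47, all lay below the controls, at 4.78, 4.50 and 4.56. That difference was -0.15 ± 0.09 (SE), with an unadjusted p of 0.131 (limma), and it was -0.07 without control array 1. Control array 1 was the highest of the 6 arrays on both Map3k14 probe sets.

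Map3k7 encodes TAK1, the kinase directly above IKK. All 6 of its probe sets read higher in deficient animals, but 5 of them by less than 0.03. The brightest, 1455441_at, had the smallest standard error of the 26 probe sets, at 9.06, 9.02 and 9.03 in controls and 9.05, 9.05 and 9.04 in deficient animals. The deficient values lay inside the control range, with a difference of 0.01 ± 0.06 (SE) and an interval of -0.14 to 0.16. Probe set 1419988_at was the 1 member probe set with every deficient array above every control, at 7.27, 7.39 and 7.25 against 7.07, 7.17 and 7.23. Its difference of 0.15 ± 0.08 (SE), 1.11-fold, had an unadjusted p of 0.101 and an adjusted p of 1 (limma), and leaving out control array 1 or IκBα-deficient array 2 gave 0.10 each time. A second probe set made from the same source sequence, 1449693_at, read 5.58, 5.51 and 5.52 against 5.47, 5.67 and 5.55, with overlapping groups and a difference of 0.03. The probe set 1425795_a_at, common to several Map3k7 transcripts, read 6.28 on IκBα-deficient array 2, and 6.74 and 6.71 on arrays 1 and 3 of that group, and its difference of 0.02 became 0.17 without that array.

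The start sites of these genes were searched for the classical κB consensus, the DNA motif that NF-κB binds, since loss of IκBα acts on NF-κB. RefSeq windows of build GRCm38.p6 from 250 bases before to 50 bases after a start site were present for 7 of the 9 genes, in 11 windows, and for Nfkbia. Ikbkb and Tab1 had no window and were not searched. The consensus of 10 letters, read on both strands, was found in 1 of the 11 windows, that of Map3k7, and in the window of Nfkbia. Of all 32851 windows, 8.46% held it, and 1 of 11 is close to that share. The stretches around both matches are printed 5′ to 3′ on the strand of the gene, because Nfkbia is a known NF-κB target and the letters of the match are the same, GGAAATTCCC, which fits the consensus when read on the opposite strand (capitals mark the match). Map3k7, chr4:31963985-31964054, plus strand, and Nfkbia, chr12:55492648-55492706, minus strand:
Map3k7: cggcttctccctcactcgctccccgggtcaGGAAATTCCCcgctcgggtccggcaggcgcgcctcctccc
Nfkbia: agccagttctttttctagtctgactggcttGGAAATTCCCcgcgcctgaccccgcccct
The match begins 92 bases before the Map3k7 start and 29 bases before the Nfkbia start. The longest run common to both windows on the strand of the gene is GGAAATTCCCCGC, which occurs on either strand in 3 of the 32851 windows. That count includes both of these windows by construction, since the run was taken from them. A match of letters is a description and does not show that NF-κB binds there in these cells. The 6 Map3k7 probe sets differed by 0.01 to 0.15 and none passed the test. Nfkbia is the deleted gene, so in its own level the deletion and any effect through its match cannot be told apart.

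Tab1 and Tab2 encode the adaptors of TAK1, of which TAB2 binds ubiquitin chains and TAB1 activates the kinase. Tab1 on 1426898_at read 7.49, 7.41 and 7.37 in controls and 7.39, 7.42 and 7.26 in deficient animals, a difference of -0.07 ± 0.08 (SE) with overlapping groups. The very dim Tab1 probe set 1447692_x_at was at 3.39, 3.42 and 3.41 against 3.34, 3.31 and 3.26, wholly below the controls by -0.10. It lay in the lowest 1.70% of all probe sets by mean, where RMA compresses differences. Tab2 was level on its bright probe set 1423462_at, at 10.86, 10.93 and 10.93 against 10.88, 10.91 and 10.92, with a difference of -0.002 ± 0.07 (SE) and an interval of -0.15 to 0.15. A second Tab2 probe set from the same source sequence, 1451003_at, read 9.56, 9.53 and 9.77 against 9.71, 9.12 and 9.66. Here IκBα-deficient array 2 stood far below the others, and the difference of -0.13 turned to 0.06 without it.

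**Figure D3:**
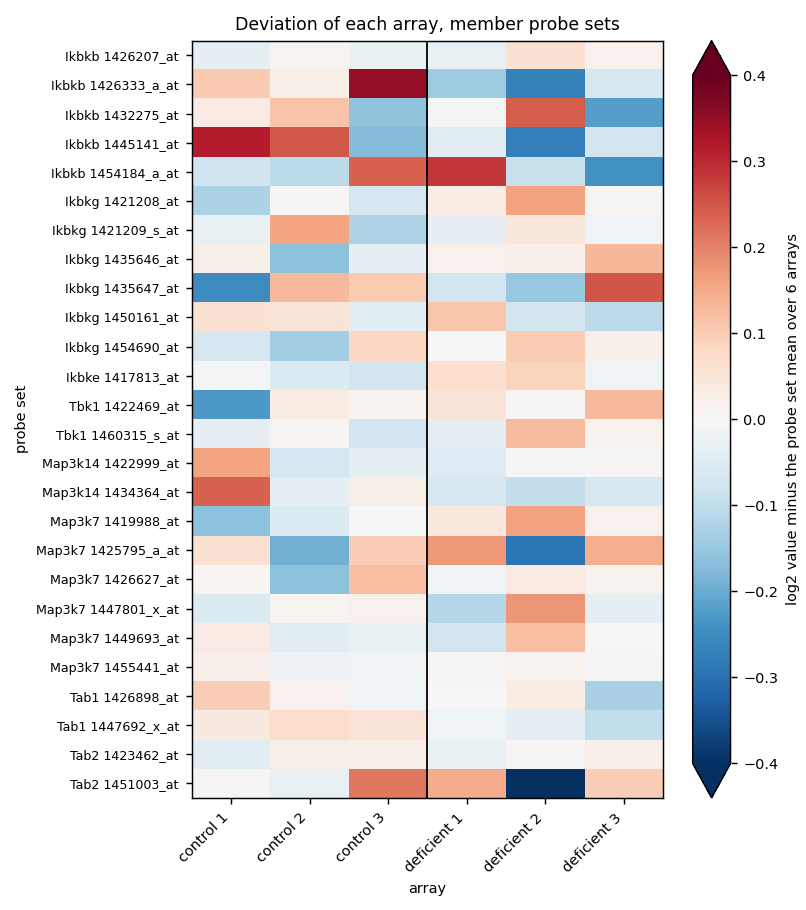
Deviation of each array (columns, controls to the left of the line) from the mean of the probe set over 6 arrays (colour, log2), for the 26 member probe sets (rows). IκBα-deficient array 2 is the highest of the 6 arrays on 9 probe sets and the lowest on 5, and its strongest departure is Tab2 1451003_at at 9.12.

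The spread between animals of a group was of the same order as the differences. The median SD of a member probe set was 0.10 in controls and 0.08 in deficient animals, beside 0.09 and 0.12 over all probe sets, and the median size of a member difference was 0.06, beside 0.07 over all probe sets. IκBα-deficient array 2 was the highest of the 6 arrays on 9 member probe sets, and it was highest on 27.3% of all probe sets. Direction was shared within 6 genes, with all probe sets higher for Ikbke, Tbk1 and Map3k7 and all lower for Map3k14, Tab1 and Tab2, and split in Ikbkb and Ikbkg. Ikbke has a single probe set, and 11 of the 26 differences changed sign when 1 of the 6 arrays was left out.

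For the core IKK genes, the genes with the closest profile were sought among 10915 genes, by the root mean square difference over the 6 arrays after each gene's own mean was removed. For Ikbkb on 1426207_at these were Nomo1, at 0.007, and Nucks1, at 0.010 on the log2 scale. For Ikbkg on 1454690_at they were Cfap97, at 0.018, and Lrrc28, at 0.019. The SD over the 6 arrays was only 0.04 for Ikbkb and 0.09 for Ikbkg. With profiles this flat, small distances among 10915 genes do not show shared regulation. These profiles also share the arrays and their normalization.

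The other genes of the pathway were taken from 7 lists, each gene by its brightest probe set, and no listed gene passed an adjusted p under 0.05 (limma), as was so for 0% of all 18193 genes on this basis. Over all genes the median difference was 0.006, with 52.6% above 0, and 2.61% higher and 1.06% lower at an unadjusted p under 0.05. Among NF-κB subunits and IκB proteins 5 of 10 measured genes read higher and 5 lower, with a median of -0.02. Relb, the NF-κB subunit of the noncanonical branch below NIK, read 7.15, 7.08 and 7.11 against 7.38, 7.55 and 7.58, a difference of 0.39 ± 0.08 (SE) with an unadjusted p of 0.00129 and an adjusted p of 1 (limma). Its groups did not overlap, as was so for 9.76% of all genes on this basis. The lowest difference of that list was that of Nfkbia, -1.40. At an unadjusted p under 0.05 the list held 2 higher genes and 1 lower.

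In the list of adaptors and ubiquitin enzymes, which also holds Ikbip, 7 of 12 measured genes read higher and 5 lower, with a median of 0.01. Traf2, an adaptor of TNF receptors that also restrains NIK, was at 6.49, 6.52 and 6.34 against 6.76, 6.66 and 6.66, wholly above the controls (difference 0.24, unadjusted p = 0.0159 and adjusted p = 1, limma). Ikbip had the smallest p among the lower genes, at -0.14, although 1 of its 3 probe sets was higher. At an unadjusted p under 0.05 this list held 2 higher genes and 0 lower, and each of the 5 lists that follow held 0 in both directions. Deubiquitinases and other brakes were split 5 to 5 with a median of 0.02. The phosphatase Ppm1b, which can dephosphorylate IKKβ, differed by 0.15, although 1 of its 3 probe sets had the opposite sign, and Tnip2, a partner of A20, by -0.11.

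Proteins that associate with IKK were split 4 to 4, with a median of -0.02. Nlrc5, on a dim probe set, differed by 0.10 and the small heat shock protein Hspb1 by -0.22, both with overlapping groups. Of the other upstream kinases, 7 of 12 read higher and 5 lower, with a median of 0.07. Map3k8, the MAP kinase kinase kinase that p105 holds in check, differed by 0.22 on a dim probe set with overlapping groups. Akt1, a survival kinase that can phosphorylate IKKα, differed by -0.11, although 1 of its 4 probe sets was higher.

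Partners and substrates of TBK1 and IKKε read higher in 6 of 9 genes and lower in 3, with a median of 0.05. Ddx3x, an RNA helicase in this branch, differed by 0.13, although 1 of its 3 probe sets was lower. The autophagy receptor Sqstm1 differed by -0.25, with IκBα-deficient array 2 at 11.12, the lowest of the 6 arrays, and no control below 11.87. Kinases below TAK1 read higher in 4 of 9 and lower in 5, with a median of -0.006. Mapk10, the JNK of neurons, differed by 0.13, although 1 of its 3 was lower, and Mapkapk2, a substrate of p38, by -0.05. Of the listed genes, 9 had no probe set under their symbol alone and were not measured here. These were Nfkb1, Traf3, Ripk1, Hsp90ab1, Irak4, Ripk2, Optn, Tmem173 and Map2k7.

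**Figure D4:**
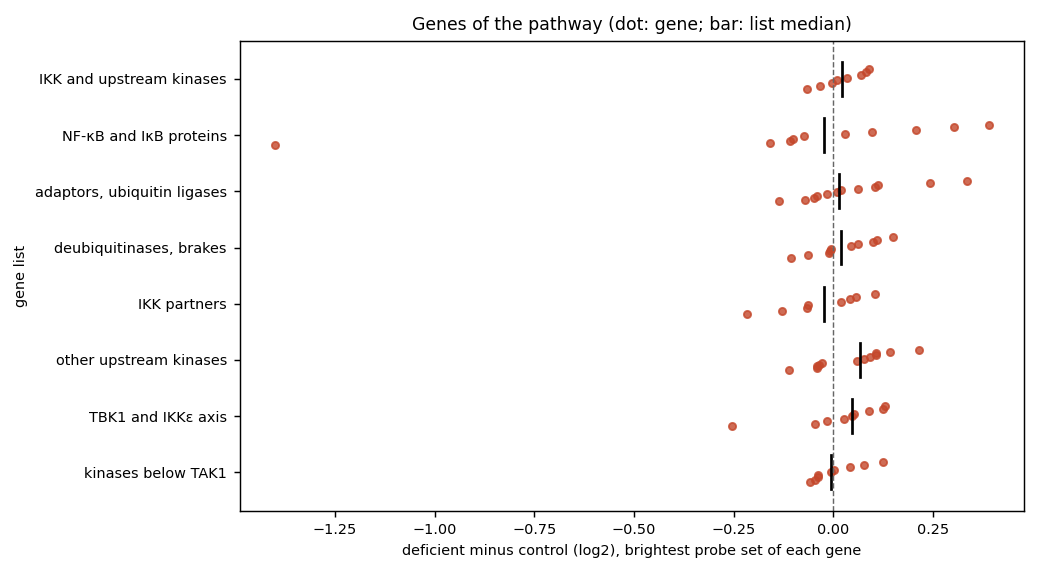
Difference between IκBα-deficient and control means (log2, horizontal axis) of each measured gene by its brightest probe set (dots) in the IKK set and 7 other lists of the pathway (rows), with the list median as a bar. Every list median lies between -0.02 and 0.07, and the dot at -1.40 is Nfkbia.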

How the data were processed

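The authors deposited log2 values from RMA, according to the submitters' processing notes in the labels. RMA corrects the background, gives all arrays the same distribution and summarises each probe set, which hides a shift common to most genes. Its version and the build were not given in the sources used here. There is no read depth, and 3 arrays per group limit the precision. Of 45101 probe sets, 64 controls were left out, and 34945 had 1 gene symbol in the platform annotation from GEO, whose symbols may be dated. The remaining 45037 were fitted in R 4.3.3 by lmFit and eBayes of limma 3.58.1, with genotype as the term and two-sided tests, and adjusted by Benjamini-Hochberg at 0.05. The code was tested on simulated data, and figures were drawn with matplotlib 3.10.9.

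The members and lists were chosen with earlier results of these data known. Named genes are all members, Nfkbia, and per list the gene with the smallest p in each direction. The profile search was limited to genes above the lowest 40% by mean and gave 2 genes for each core IKK gene measured. Marker lists for microglia, astrocytes, oligodendrocytes, endothelium, leukocytes and interneurons had median differences of 0.05, 0.02, 0.05, 0.07, -0.005 and -0.05. The astrocyte median joins opposite differences, from -0.14 for S100b to 0.45 for Aqp4. Of the 10 astrocyte markers, 3 stood wholly above the controls and 2 wholly below, together 50% beside 9.76% of all genes, and none passed the test (limma). The 19 alternatives left out each array, added the repeat number or a covariate, or changed normalization, probe sets or variance model.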

Additional observations from a re-analysis of the deposited data

How the results depend on the processing

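The members were not called under any of the 19 alternatives: 0 of 465 values passed, with a lowest adjusted p of 0.837 (limma), and 44 changed sign. On all 6 arrays, Ikbkb 1426333_a_at narrowed to as little as -0.16. Others widened, to -0.48 for Ikbkb 1445141_at, -0.318 for Map3k14 1434364_at, 0.341 for Ikbkg 1435647_at and 0.315 for Tbk1 1422469_at. Members at an unadjusted p under 0.05 (limma) numbered 3 with the choroid plexus covariate, 2 with meninges and 0 with 3′ to 5′, against 1 in the reported fit. All probe sets gave 385 higher and 326 lower with choroid plexus, and 1001 and 1196 with meninges. With 1 array left out, the median member difference ran from 0.00524 to 0.0239, the count of probe sets called higher over the whole array from 0 to 6 (6 without control array 1) and that called lower from 1 to 4. The lower count, 3 in the reported fit, was 2 to 4 under the other alternatives on all 6 arrays but 0 with 1 probe set per gene, without moderation or with the choroid plexus covariate, and 1 without shared probe sets or with the meninges or 3′ to 5′ covariate. The study design speaks of pairs of animals. No label says that the repeat number marks the pair, so the reported fit is unpaired. Deviations of same-numbered arrays correlated at -0.00441, 0.273 and 0.0327, and not every array correlated best with its own number. Such correlations cannot show which animals were littermates. With the replicate block, 2 probe sets were called lower and 0 members.

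Nfkbia was lower throughout. With 1 array left out, 1420088_at ran from -1.49 to -1.26, 1448306_at from -1.83 to -1.68 and 1449731_s_at from -1.96 to -1.66. The call of 1449731_s_at was lost in 5 of these 6 fits (adjusted p 0.11 to 0.404, limma), all but that without IκBα-deficient array 3. That of 1448306_at was lost when control array 3 (0.088) or IκBα-deficient array 2 (0.0732) was left out, and 1420088_at was called without IκBα-deficient array 3 (-1.26, 0.0267). On all 6 arrays, calls were gained for 1420088_at with median centring, with probe sets of 1 symbol and with trend and robust settings (-1.4 in each), and with array weights (-1.42). Calls were lost for 1449731_s_at with the replicate block and with dim probe sets left out (-1.83 in both). Without moderation they were lost for 1438157_s_at (-1.77), 1448306_at (-1.74) and 1449731_s_at (-1.83), and with the choroid plexus covariate for the same probe sets (-1.86, -1.91 and -2.01). The meninges covariate ended the calls of 1448306_at (-1.65) and 1449731_s_at (-1.99), and the 3′ to 5′ covariate those of 1448306_at (-1.68) and 1449731_s_at (-1.95). The cause was not tested.

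Sign changes of members with array weights were Ikbkb 1432275_at (-0.0533) and 1454184_a_at (0.0706), Map3k7 1447801_x_at (-0.0141) and 1449693_at (-0.0151), and Tab2 1423462_at (0.00501). With the choroid plexus covariate they were Ikbkb 1432275_at (-0.0737), Ikbkg 1421209_s_at (0.0309), Map3k7 1425795_a_at (-0.0732) and 1455441_at (-0.0193), and Tab2 1423462_at (0.056). With the meninges covariate they were Ikbkb 1432275_at (-0.225) and 1454184_a_at (0.0886), Tbk1 1460315_s_at (-0.00977), Map3k7 1447801_x_at (-0.0817) and 1449693_at (-0.0441), and Tab2 1423462_at (0.00312) and 1451003_at (0.184). With the 3′ to 5′ covariate they were Ikbkb 1432275_at (-0.116) and 1454184_a_at (0.0102), Map3k7 1447801_x_at (-0.0623) and 1449693_at (-0.0225), and Tab2 1451003_at (0.0615). With 1 array left out, Ikbkb 1432275_at ran from -0.111 to 0.121 and 1454184_a_at from -0.18 to 0.0818, Ikbkg 1421209_s_at from -0.0648 to 0.0758 and 1435647_at from -0.109 to 0.0929, and Map3k14 1422999_at from -0.0768 to 0.0381. Map3k7 1425795_a_at ran from -0.0698 to 0.171, 1426627_at from -0.0521 to 0.089, 1447801_x_at from -0.0662 to 0.0788 and 1449693_at from -0.0253 to 0.0734, and Tab2 1423462_at from -0.0239 to 0.0115 and 1451003_at from -0.232 to 0.0617.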
